A study of Homo sapiens with 6 samples.

Results

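Ribosome footprints on 10 genes of cellular iron uptake, storage and sensing were examined in K562 cells depleted of N6AMT1. The genes were taken by symbol, TFRC, FTL, FTH1, SLC40A1, SLC11A2, IREB2, ACO1, SLC25A37, STEAP3 and FBXL5, and all 10 were listed among the 19330 genes of the table. K562 is a human chronic myelogenous leukemia cell line with erythroid features. Ribosome profiling (Ribo-Seq) counts mRNA fragments shielded by ribosomes from a nuclease, so a footprint count depends on mRNA abundance as well as on translation. The N6AMT1 protein methylates the release factor eRF1, which ends translation, and the study asked how its loss alters cytosolic protein synthesis.

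Both groups received the pLentiCRISPRv2 lentiviral vector, which carries Cas9 and a guide RNA, were selected with puromycin for 48 h and were analysed 10 days post infection. The 3 sgN6AMT1 libraries carried a guide against N6AMT1. The 3 sgCtrl libraries carried control guides, which the labels give as OR11A1 and OR2M49. Which guide each library of either group carried is not stated. No cloning step is described, so each culture may hold a mixture of edited and unedited cells. The study describes its 3 profiled replicates per group as separate lentiviral infections, which the labels do not state, and p-values measure the spread between these libraries.

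Cells take up iron mainly as transferrin bound to the transferrin receptor, reduce it in the endosome and pass it to the cytosol, where ferritin stores what is not used. The iron regulatory proteins IRP1 and IRP2 bind a hairpin called the iron-responsive element (IRE) when cytosolic iron is scarce. Bound in the 5′ untranslated region (UTR) they block translation, as for ferritin and ferroportin, and bound in the 3′ UTR they protect the mRNA from decay, as for the transferrin receptor. In erythroid cells most of this iron goes to mitochondria for heme.

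The hairpins are shown here because the regulatory proteins are known to act on the storage, export and uptake mRNAs through them. The motif searched was CNNNNNCAGTGN on the sense strand of each UTR, with 5 bases before the CAGTGN loop paired to the 5 after it and G-U pairs allowed. The bulged C and the 6 loop bases are in capitals, each sequence is 5′ to 3′, and positions refer to GRCh38 with GENCODE 44 transcripts. The 5′ UTRs of FTL, FTH1 and SLC40A1 each held 1 match, and the 3′ UTR of TFRC held 4, spread over 546 bases of chromosome 3. Each of these matches lay within 1 exon. Elements that depart from this motif or pairing were not counted.
FTL, 5′ UTR, chr19:48965334-48965363, plus strand: tctcttgCttcaaCAGTGTttggacggaac
FTH1, 5′ UTR, chr11:61967574-61967603, minus strand: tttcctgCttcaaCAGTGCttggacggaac
SLC40A1, 5′ UTR, chr2:189580661-189580690, minus strand: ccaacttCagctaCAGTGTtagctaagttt
TFRC, 3′ UTR, chr3:196050979-196051008, minus strand: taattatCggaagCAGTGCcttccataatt
TFRC, 3′ UTR, chr3:196050575-196050604, minus strand: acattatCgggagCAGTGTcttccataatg
TFRC, 3′ UTR, chr3:196050510-196050539, minus strand: tctgtatCggagaCAGTGAtctccatatgt
TFRC, 3′ UTR, chr3:196050463-196050492, minus strand: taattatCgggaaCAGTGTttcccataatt

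The windows of FTL and FTH1 were the same at 27 of 30 bases. Of 18388 5′ UTRs, 20 held the motif (0.109%), and of 18454 3′ UTRs, 105 did (0.569%). The UTRs of IREB2, ACO1, SLC25A37, STEAP3, FBXL5 and SLC11A2 held no match, which says only that the letters with this pairing are not in the transcripts searched. A 3′ IRE is known in one splice form of SLC11A2, and that form was not among the transcripts searched.

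The libraries held between 1821356 and 2969736 footprint counts. Footprints on N6AMT1 numbered 25, 24 and 34 in the controls and 10, 9 and 8 in the depleted libraries, and fell by 1.51 ± 0.31 on the log2 scale (SE, n = 3 per group, edgeR adjusted p = 6.69e-05). Of 12 erythroid markers of K562, all were detected, with 5 higher, 3 lower and 4 not past the threshold. The higher ones were HBE1, HBA1, HBA2, TAL1 and ALAS2, and the lower ones HBZ, GATA1 and KLF1. The coding sequences of HBA1 and HBA2 were the same in length and GC content (429 bases, 64.8%). Those of HBG1 and HBG2 were nearly so (444 bases, 53.8% and 53.6%). Reads may be split between such copies, so the genes of each pair may not count as separate markers. Over all genes tested, 12.9% were higher and 13.9% lower. The summed level of the erythroid markers was 29030 to 30952 CPM (footprints scaled to a common library size) in sgCtrl and 31014 to 32335 CPM in sgN6AMT1. Of 13 markers of other cell types, 7 were tested, and PTPRC, LYZ and KRT18 were higher in sgN6AMT1. CD3D, EPCAM, COL1A1 and COL1A2 did not pass, with log2 fold changes of -0.31, 0.054, 0.23 and -0.28. MS4A1, CD14 and KRT5 were listed at 0 in every library. The summed level of the list was 1141 to 1198 CPM in sgCtrl and 1396 to 1417 CPM in sgN6AMT1. The part of these shifts in the results below was not tested.

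All 10 iron genes passed the filter on low counts, as did 9202 of the 19330 genes. A gene was called at a Benjamini-Hochberg adjusted p under 0.05 over all 9202 genes (quasi-likelihood test of edgeR), fold changes are sgN6AMT1 over sgCtrl, and CPM values use TMM-scaled library sizes. Of the 10, FTL and FTH1 were higher, TFRC, SLC40A1 and STEAP3 were lower, and SLC11A2, IREB2, ACO1, SLC25A37 and FBXL5 did not pass, although ACO1 and SLC25A37 had an unadjusted p under 0.05. Over all genes tested 26.9% were called, 12.9% higher and 13.9% lower, so a call alone did not set these genes apart and the sizes below carry the description. The median log2 fold change was -0.13 over the 10 genes and 0.0063 over all genes. The CPM values of the groups did not overlap for 6 of the 10 genes, 2 higher and 4 lower, against 37.5% of all genes tested, 18.4% higher and 19.2% lower. With library totals in place of TMM factors, the split over all genes was 1560 higher and 976 lower, against 1191 and 1282.

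**Figure D1:**
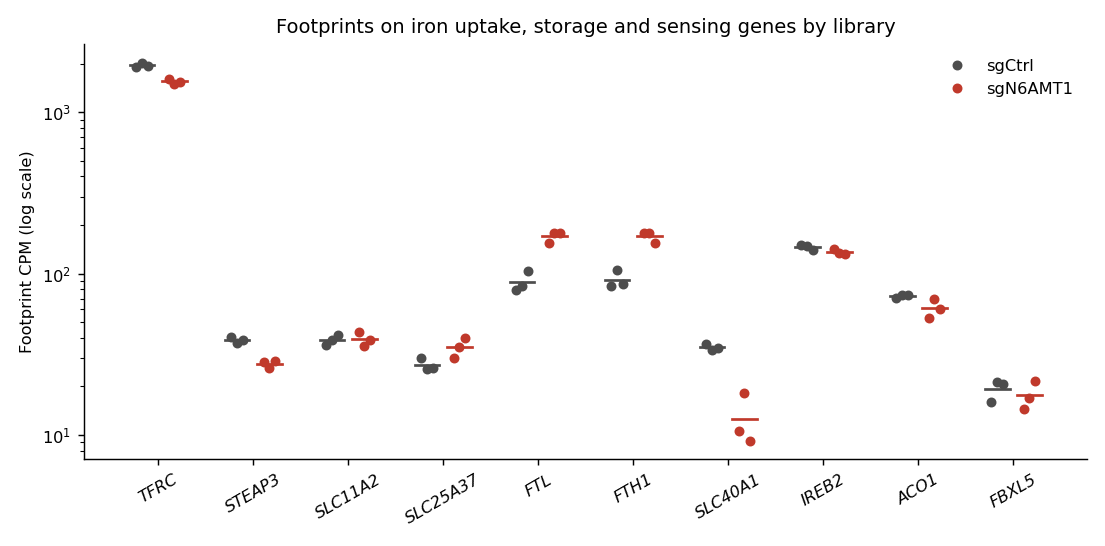
Footprint CPM on a log axis for each of the 10 genes in the 3 sgCtrl (grey) and 3 sgN6AMT1 (red) libraries, with horizontal lines at the group means. The FTL and FTH1 points of sgN6AMT1 lie at 155 to 179 CPM and those of sgCtrl at 79.4 to 105 CPM, whereas the SLC40A1 points of sgN6AMT1 lie at 9.23 to 18.2 CPM, below 33.8 to 36.7 CPM in sgCtrl.

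Ferritin, the hollow shell that stores iron, is built of a heavy chain (FTH1), which oxidises ferrous iron, and a light chain (FTL), which helps the mineral core to form. Footprints on both chains were close to 2 times as dense after N6AMT1 depletion. FTL (chr19:48965309-48966879) had 158, 242 and 210 counts in the controls and 353, 411 and 330 in the depleted libraries, or 79.4, 83.4 and 104 CPM against 155, 178 and 179 CPM. Every sgN6AMT1 library was above every sgCtrl library. FTL rose 1.92-fold, from 88.8 ± 12.9 to 170 ± 13.7 CPM (SD, n = 3), with a log2 fold change of 0.94 (SE 0.088, adjusted p = 8.88e-16 by edgeR).

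FTH1 (chr11:61964566-61967631) had 167, 305 and 174 counts in the controls and 406, 413 and 287 after depletion, or 83.9, 105 and 85.8 CPM against 178, 178 and 156 CPM. The groups did not overlap here either. FTH1 rose 1.85-fold, from 91.6 ± 11.8 to 171 ± 12.9 CPM (SD, n = 3), with a log2 fold change of 0.88 (SE 0.087, adjusted p = 7.96e-15 by edgeR). Of all genes tested, 2.71% had a higher log2 fold change than FTL, and 3.11% a higher one than FTH1.

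The chains moved together, and their ratio did not separate the groups. FTH1 counts divided by FTL counts gave 1.06, 1.26 and 0.829 in the controls and 1.15, 1.00 and 0.870 in the depleted libraries. The mean log2 ratio differed by -0.05, within SDs of 0.30 and 0.20 (2-sided exact permutation test, p = 0.8, where 0.1 is the smallest p that 3 against 3 libraries allow). Both chains have many processed copies in the genome, 25 named FTH1 pseudogenes and 16 named FTL pseudogenes in GENCODE 44. Of all 28-base windows in the coding sequence (CDS), 91.4% for FTH1 and 62.3% for FTL occur elsewhere in GRCh38, so their counts are uncertain as to how such reads were assigned.

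Transferrin receptor 1 (TFRC, chr3:196049476-196082090), which carries iron-loaded transferrin into the cell, had the highest counted footprint density of the 10 genes and fell modestly. It had 3787, 5868 and 3918 counts in the controls and 3662, 3474 and 2850 after depletion, or 1902, 2023 and 1932 CPM against 1605, 1501 and 1547 CPM. The highest sgN6AMT1 library was below the lowest sgCtrl library. TFRC was 1.26-fold lower, at 1952 ± 63.0 CPM in sgCtrl and 1551 ± 52.2 CPM in sgN6AMT1 (SD, n = 3), with a log2 fold change of -0.33 (SE 0.044, adjusted p = 1.49e-09 by edgeR). None of its 28-base windows occur elsewhere in the genome. In bulk libraries, fewer cells with a transcript and less of it per cell cannot be told apart.

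STEAP3 (chr2:119223834-119265652), the endosomal reductase that turns ferric into ferrous iron after transferrin uptake, was also lower. It had 81, 108 and 79 counts in the controls and 65, 60 and 53 after depletion, or 40.7, 37.2 and 39.0 CPM against 28.5, 25.9 and 28.8 CPM. The groups did not overlap. STEAP3 was 1.4-fold lower, from 39.0 ± 1.73 to 27.7 ± 1.57 CPM (SD, n = 3), with a log2 fold change of -0.49 (SE 0.14, adjusted p = 0.00605 by edgeR). DESeq2, with its own size factors and filter, gave nearly the same size, -0.50, but an adjusted p of 0.0968.

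SLC11A2 encodes the divalent metal transporter DMT1, which moves ferrous iron from the endosome to the cytosol. It had 36.2, 39.0 and 41.9 CPM in sgCtrl and 43.4, 35.4 and 38.5 CPM in sgN6AMT1, and the groups overlapped throughout. Its log2 fold change was 0.0045 with a 95% interval of -0.26 to 0.26 (edgeR adjusted p = 0.988). SLC25A37, or mitoferrin-1, the carrier of iron across the inner mitochondrial membrane in erythroid cells, had 30.1, 25.5 and 26.1 CPM in sgCtrl and 29.8, 35.0 and 40.2 CPM in sgN6AMT1. The lowest sgN6AMT1 library lay below the highest sgCtrl library. Its log2 fold change was 0.36 ± 0.15 (SE), with a 95% interval of 0.06 to 0.65 (edgeR adjusted p = 0.0672).

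SLC40A1, or ferroportin (chr2:189560590-189580786), is the exporter of iron from vertebrate cells, and it showed the largest change of the 10 genes. It had 73, 98 and 70 counts in the controls and 24, 42 and 17 after depletion, or 36.7, 33.8 and 34.5 CPM against 10.5, 18.2 and 9.23 CPM. The groups were far apart, and sgN6AMT1 replicate 2 lay above the other two libraries of its group. SLC40A1 was 2.7-fold lower, from 35.0 ± 1.50 to 12.6 ± 4.82 CPM (SD, n = 3), with a log2 fold change of -1.43 (SE 0.19, adjusted p = 5.77e-10 by edgeR). Of all genes tested, 0.25% had a lower log2 fold change. The spread was wider in the depleted group, with a coefficient of variation of 38.2% against 4.29% in sgCtrl.

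Ferroportin and ferritin footprints moved in opposite directions, and the transcripts searched of SLC40A1, FTL and FTH1 held the motif in the 5′ UTR. Counts were given per gene, so mRNA forms that differ in the 5′ UTR were not told apart. The cause of the opposite changes was not tested.

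**Figure D2:**
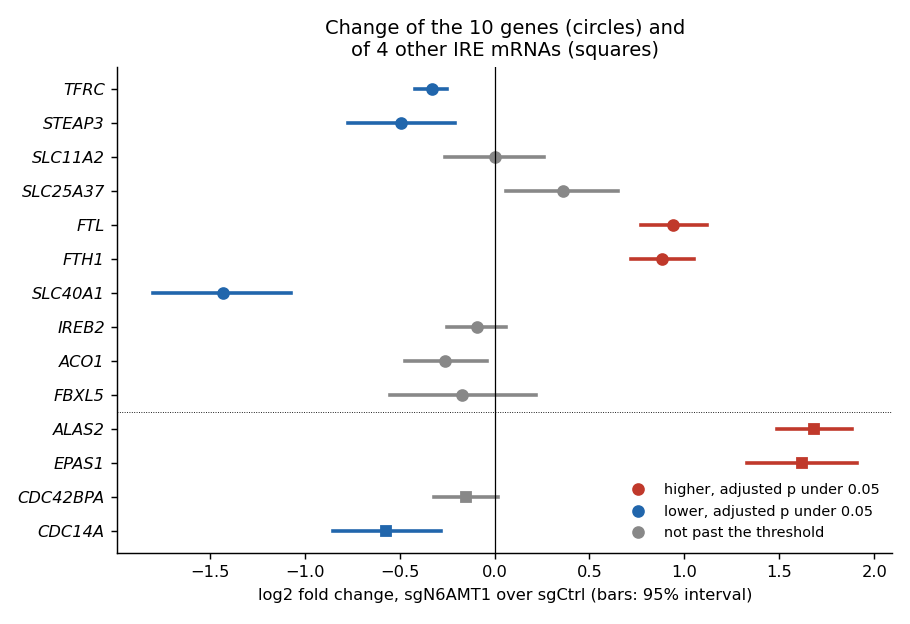
Log2 fold change (horizontal axis, sgN6AMT1 over sgCtrl) with its 95% interval for the 10 genes (circles) and 4 other mRNAs known for an IRE (squares), red and blue where higher or lower at an edgeR adjusted p under 0.05 and grey otherwise. FTL and FTH1 lie near 0.9, ALAS2 and EPAS1 above 1.6 and SLC40A1 at -1.43, while the interval of TFRC, -0.42 to -0.25, is the narrowest of the 10 genes.

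Neither iron regulatory protein gene passed the threshold. IREB2, which encodes IRP2, the regulatory protein that is degraded when iron is plentiful, had 150, 148 and 140 CPM in sgCtrl and 143, 135 and 133 CPM in sgN6AMT1. The sgN6AMT1 libraries were lower on average, but the groups overlapped. Its log2 fold change was -0.09 with a 95% interval of -0.25 to 0.06 (edgeR adjusted p = 0.414). ACO1, which encodes IRP1, a protein that is a cytosolic aconitase when it holds an iron-sulfur cluster, had 70.3, 73.4 and 74.0 CPM in sgCtrl and 53.0, 69.1 and 60.3 CPM in sgN6AMT1. These groups did not overlap, with sgN6AMT1 replicate 2 the closest to the controls. The log2 fold change of ACO1 was -0.26 ± 0.11 (SE), with a 95% interval of -0.47 to -0.04 (edgeR adjusted p = 0.0809).

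IREB2 counts divided by ACO1 counts gave 2.14, 2.02 and 1.89 in the controls and 2.69, 1.95 and 2.20 in the depleted libraries. The values overlapped, and the mean log2 ratio differed by 0.17 (2-sided exact permutation test, p = 0.4). FBXL5, the iron-binding subunit of the ubiquitin ligase that marks IRP2 for degradation, had the lowest density of the 10 genes in sgCtrl. It had 16.1, 21.4 and 20.7 CPM in sgCtrl and 14.5, 16.9 and 21.7 CPM in sgN6AMT1, overlapping throughout, with a log2 fold change of -0.17 and a 95% interval of -0.55 to 0.22 (edgeR adjusted p = 0.574). Its 3 ligase partners SKP1, CUL1 and RBX1 did not pass the threshold either, and their median log2 fold change was -0.01.

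Uptake and storage can be set against each other inside a library, where no scaling between libraries enters. TFRC counts divided by the sum of FTH1 and FTL counts gave 11.7, 10.7 and 10.2 in the sgCtrl libraries. The same ratio was 4.82, 4.22 and 4.62 in the sgN6AMT1 libraries, so every depleted library was far below every control. The mean log2 ratio went from 3.44 ± 0.10 to 2.18 ± 0.10 (SD, n = 3), a 2.39-fold lower ratio (2-sided exact permutation test, p = 0.1, the smallest possible here). TFRC was lower, and both ferritin chains were higher, in every depleted library than in every control. The separation of the ratio and its p followed from those values and are no further support for them.

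**Figure D3:**
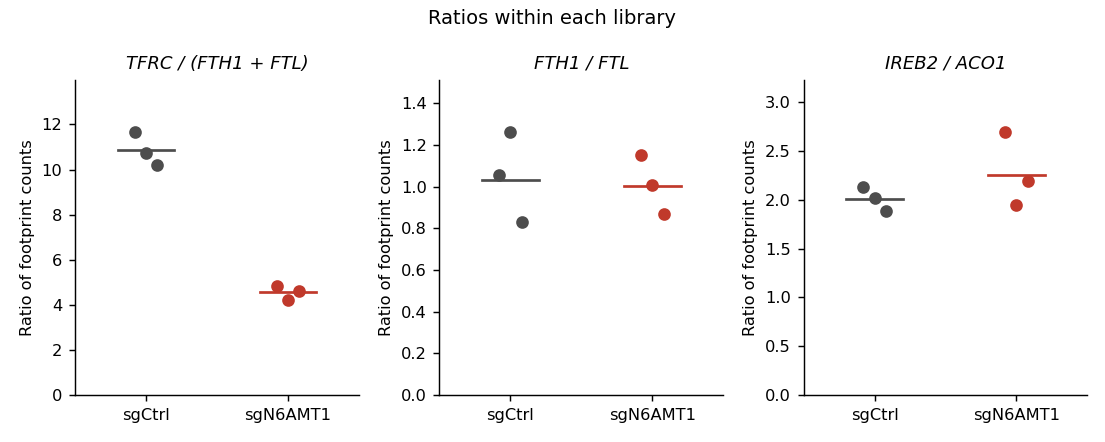
Ratios of footprint counts within each library (vertical axes, linear from 0) for TFRC over summed ferritin, FTH1 over FTL and IREB2 over ACO1, with points for libraries and lines at the geometric means. The first ratio separates the groups, 10.2 to 11.7 against 4.22 to 4.82, and the other two overlap.

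Per kilobase of CDS, the scale on which levels of different genes can be compared, TFRC led in both groups, with a level of 855 ± 27.6 CPM per kb in sgCtrl and 679 ± 22.9 CPM per kb in sgN6AMT1 (SD, n = 3). Ferritin came next, FTL at 168 ± 24.5 and FTH1 at 166 ± 21.3 CPM per kb in sgCtrl, and 323 ± 25.9 and 309 ± 23.4 CPM per kb in sgN6AMT1. The chains did not differ in level beyond the range of their libraries in either group. IREB2 followed in both groups, at 50.5 ± 1.97 and 47.3 ± 1.89 CPM per kb. In sgCtrl the remaining order was ACO1, SLC25A37, STEAP3, SLC11A2, SLC40A1 and FBXL5, from 27.2 down to 9.34 CPM per kb. Within it ACO1 and SLC25A37 overlapped in range, as did SLC25A37 and STEAP3, and SLC11A2 and SLC40A1. In sgN6AMT1 the order after IREB2 was SLC25A37, ACO1, SLC11A2 and STEAP3, of which ACO1 and SLC11A2 overlapped. There SLC40A1 was last, at 7.36 ± 2.81 CPM per kb, overlapping with FBXL5 at 8.51 ± 1.78 CPM per kb. The FTL level used the CDS of the canonical GENCODE transcript, since the listed transcript had no match there. Of the 28-base windows in the CDS, 91.4% for FTH1 and 62.3% for FTL occur elsewhere in GRCh38. How such reads were assigned is not known, so the rank of ferritin, below TFRC included, is uncertain.

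Beyond the 10 genes, 4 further mRNAs known for an IRE or a similar element were examined, and 2 were higher and 1 lower. ALAS2, the erythroid enzyme that starts heme synthesis, had 97, 154 and 89 counts in the controls and 383, 361 and 272 after depletion. All sgN6AMT1 libraries were well above all controls. ALAS2 rose 3.21-fold, from 48.6 ± 4.61 to 157 ± 10.2 CPM (SD, n = 3, log2 fold change 1.68 ± 0.099 SE, edgeR adjusted p = 1.59e-27). EPAS1, or HIF-2α, a transcription factor of the hypoxia response, had 32, 52 and 32 counts in the controls and 122, 114 and 96 after depletion. EPAS1 likewise did not overlap between groups and rose 3.07-fold (log2 fold change 1.62 ± 0.15 SE, edgeR adjusted p = 6.40e-16).

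CDC14A, a phosphatase with an IRE in the 3′ UTR of one form, fell from 39.7 ± 6.66 to 27.0 ± 0.637 CPM (SD, n = 3, log2 fold change -0.57 ± 0.15 SE, edgeR adjusted p = 0.00145). CDC42BPA, a kinase whose mRNA carries a 3′ UTR element, had a log2 fold change of -0.15 (edgeR adjusted p = 0.218). The call of CDC14A was not made by DESeq2, with an adjusted p of 0.0554. The motif was found in ALAS2 and CDC14A, the latter only in the canonical transcript, and not in the UTRs searched of EPAS1 and CDC42BPA.
ALAS2, 5′ UTR, chrX:55026015-55030970 with an intron between, minus strand: attcgttCgtcctCAGTGCagggcaacagg
CDC14A, 3′ UTR, chr1:100518582-100518611, plus strand: atatttaCatgtaCAGTGTtacattatata

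Of the 20 genes with the motif in the 5′ UTR, 10 were tested. Of these 5 were higher, among them FTL, FTH1, ALAS2 and the RNA-editing enzyme ADAR, SLC40A1 and the purine synthesis enzyme GART were lower, and 3 did not pass. Of the 105 genes with the motif in the 3′ UTR, 64 were tested, of which 4 were higher and 10 lower, TFRC among them, beside 12.9% higher and 13.9% lower over all genes, so the lower share of the 3′ set was near the background. The median log2 fold change was 0.24 for the 5′ set and 0.01 for the 3′ set, beside 0.0063 over all genes. The 10 tested genes of the 5′ set include FTL, FTH1, ALAS2 and SLC40A1, which were described above. The counts and median of this small set are therefore no further support for the changes of those genes.

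**Figure D4:**
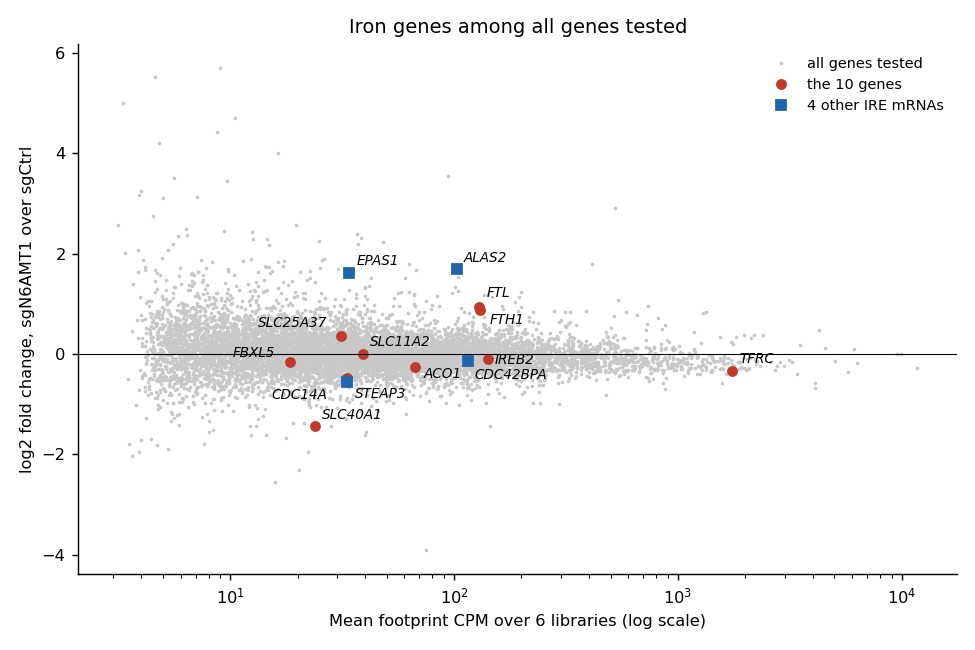
Log2 fold change (vertical axis, sgN6AMT1 over sgCtrl) against mean footprint CPM over the 6 libraries (log axis) for the 9202 genes tested (grey), with the 10 genes in red and 4 other IRE mRNAs in blue. SLC40A1 lies at -1.43, with 0.25% of genes below it, FTL and FTH1 have 2.71% and 3.11% of genes above them, and TFRC stands among the most abundant genes, at 1952 CPM in sgCtrl.

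The other genes of iron handling described here had log2 fold changes between -0.44 and 0.69, and their counts of calls below stand beside the 26.9% called over all genes. Of 17 further transport and reduction genes, 7 were tested, with MCOLN1, a lysosomal cation channel that releases iron, and SLC39A8, a metal importer, higher by 0.69 and 0.63 on the log2 scale (edgeR adjusted p = 0.00271 and 4.19e-06). ABCB10, a mitochondrial transporter that partners with mitoferrin-1, was lower by a log2 fold change of -0.28 (edgeR adjusted p = 0.0282), and TFR2, a second transferrin receptor, had -0.14 and did not pass. Of 8 tested genes of endosomal and ferritin routing, 1 was called, HERC2, a ubiquitin ligase for the ferritin receptor NCOA4 (log2 fold change -0.23, edgeR adjusted p = 0.0441), while NCOA4 had 0.12 and did not pass. The HERC2 call was lost under 12 of 15 alternatives, among them DESeq2 and leaving out any single library, and the ABCB10 call under 6 of 15. The MCOLN1 call, on 31 to 60 counts per library, was lost under 1 of 14, DESeq2, and the SLC39A8 call under 0 of 15.

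In heme transport and breakdown, 2 of 8 tested genes were higher and 1 lower. They were the biliverdin reductase BLVRA at a log2 fold change of 0.41 and FLVCR1, first described as a heme exporter, at 0.36, and the second biliverdin reductase BLVRB at -0.20 (edgeR adjusted p = 0.000666, 0.0309 and 0.00361). The FLVCR1 call was lost under 5 of 15 alternatives. HMOX1, the inducible heme oxygenase, was listed at 0 in all 6 libraries. Of 18 tested genes of mitochondrial iron-sulfur cluster assembly, 2 were higher and 1 lower, a smaller share than the 26.9% over all genes. The mitochondrial chaperone HSPA9 fell by 0.39 on the log2 scale (edgeR adjusted p = 1.5e-11), and BOLA3 and the cysteine desulfurase NFS1 were higher by 0.45 and 0.30 (edgeR adjusted p = 0.0243 and 0.0454).

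In cytosolic cluster assembly 2 of 12 were higher, also a smaller share than over all genes, CIAO1 of the targeting complex by 0.33 and BOLA2 by 0.41 on the log2 scale (edgeR adjusted p = 0.00466 and 0.0459). The near-identical copy BOLA2B had 0.30 and did not pass, and reads may be split between the copies. In the assembly lists the calls of NFS1, BOLA2, BOLA3 and CIAO1 were lost under 9, 7, 4 and 2 of 15 alternatives. Medians of the lists outside the 10 genes and the IRE mRNAs lay between -0.07 and 0.19, beside -0.13 for the 10 genes.

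**Figure D5:**
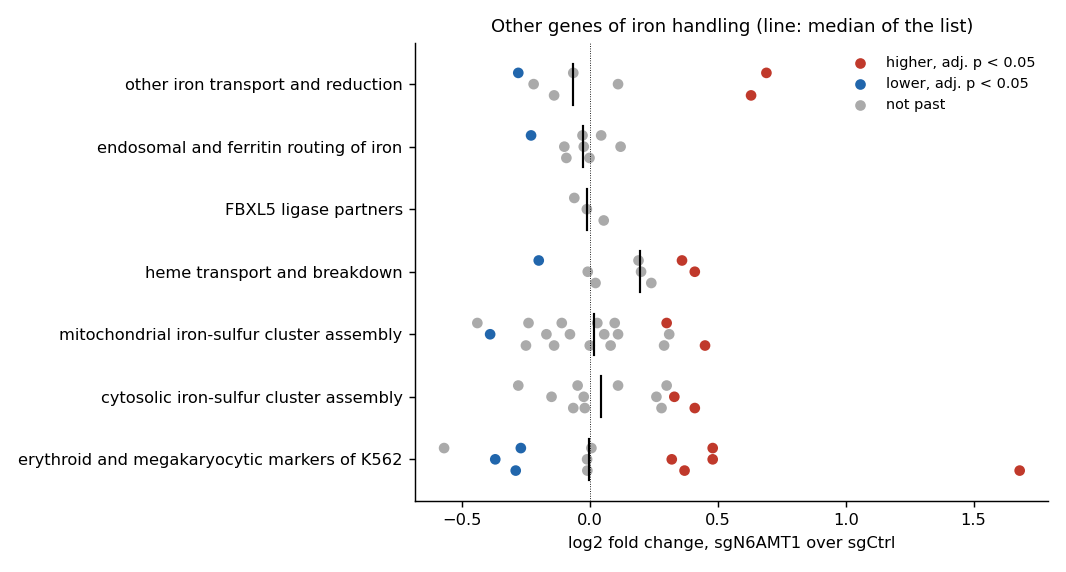
Log2 fold change (horizontal axis, sgN6AMT1 over sgCtrl) of each tested gene in 6 further iron lists and in the erythroid markers, red and blue where higher or lower at an edgeR adjusted p under 0.05, grey otherwise, with a line at each list's median. Points of the iron lists lie between -0.44 and 0.69, and the single point beyond 1.5 is ALAS2 among the erythroid markers.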

How the data were processed

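The authors deposited 1 table of raw footprint counts for 19330 transcripts in 6 libraries, not normalized and not pooled. Per the methods and the submitters' processing notes, reads were trimmed with cutadapt, mapped to GRCh38 with HISAT2, cleared of rRNA and tRNA and mapped with Bowtie2 to 1 transcript per gene. P-sites were summed over the CDS, but overlaps with an annotation were also counted, and which count the table holds is not stated. Lysates held cycloheximide. The RNA libraries were not used here, so footprints per mRNA (translational efficiency) were not computed.

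The table was fitted whole in edgeR 4.0.16 (R 4.3.3): filterByExpr (minimum count 10, leaving out 10128 genes with 0.465% of the counts), TMM, robust quasi-likelihood test by group, Benjamini-Hochberg over 9202 genes. The SE is the log2 fold change divided by the root of F, and 95% intervals are ± 1.96 SE. Libraries of a group differed more than counting noise (chi-square per degree of freedom 1.25 to 1.68) and none was a copy of another. DESeq2 1.42.0, limma 3.58.1 (voom) and other scalings, filters, a replicate block, CDS length and GC trends and leaving out each library were alternatives. The tests were first checked on simulated data. Transcripts were matched to GENCODE 44 by identifier (17687, 91.5%; 9 of the 10 genes), otherwise by the canonical transcript of the symbol. The 10 genes and the lists were chosen with earlier results of these data known. Beyond the 10 genes, the IRE mRNAs and N6AMT1, at most 4 genes per list were named, those with the largest change among called genes of at least 10 CPM on average; TFR2, NCOA4, HMOX1, the ligase partners, the marker genes, ADAR and GART were named outside this rule, after their values were seen. Some genes of the lists are not reported here.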

Additional observations from a re-analysis of the deposited data

How the results depend on the processing

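TFRC, FTL, FTH1 and SLC40A1 passed the threshold in the same direction under each of the 15 alternatives, at log2 fold changes of -0.36 to -0.28, 0.86 to 1.06, 0.82 to 1.01 and -1.81 to -1.28. STEAP3 was lost with DESeq2 alone (-0.50). SLC25A37 passed with a mean of at least 50 counts (0.38), with total counts (0.41) and without sgN6AMT1 replicate 1, leaving out 1 library giving 0.26 to 0.46. ACO1 passed without sgN6AMT1 replicate 2, with a range of -0.37 to -0.16. SLC11A2, near 0, turned sign with DESeq2 (-0.0048), with no filter (-0.0056), under the replicate block (-0.00065) and between -0.084 and 0.077 without single libraries. The FTH1 to FTL log2 ratio ran from -0.20 to 0.10 without single libraries. FBXL5 was filtered out at a mean of 50 counts and has no value there. DESeq2 called 1324 genes (585 higher, 739 lower) against 2473, and fewer in the lists: 2 against 3 of the IRE mRNAs, 1 against 3 in transport, 0 against 1 in routing, 1 against 3 in mitochondrial and 0 against 2 in cytosolic cluster assembly. Removing length and GC trends gave 2 in routing and 1 in mitochondrial assembly. Routing had 0 with upper-quartile factors and with the block, and 0 without any single library. Without single libraries mitochondrial assembly had 1 to 2 and cytosolic assembly 0 to 3, and the latter had 1 with no filter. Without sgCtrl replicate 2 and sgN6AMT1 replicate 2, 1955 and 1859 genes were called. The cause of these changes was not tested, except that leaving out a library leaves fewer samples.

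Same-numbered libraries did not deviate together (correlations -0.139, 0.035 and 0.003), so the numbers were not taken as pairs. With the replicate block 2390 genes were called against 2473, and 5 of the 10 iron genes as before. Of 239 values of the 16 other named genes, 191 kept their side of the threshold, 48 fell short of it and 0 reversed. Low depth limits FBXL5 (32 to 62 counts per library) and SLC40A1 (17 to 42 counts in the depleted libraries).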
